A study of Homo sapiens with 11 samples.

Results

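The nuclear genes for the mitochondrial respiratory chain were followed by RNA-seq in 2 human cancer cell lines, with 11 libraries in all. They were taken by symbol: NDUFA, NDUFB, NDUFC, NDUFS and NDUFV genes with a number, SDHA to SDHD, and every symbol starting with UQCR, COX4 to COX8 or ATP5, with pseudogene symbols left out. This gave 87 of the 23228 genes tabulated, of which 83 belong to complexes I to V or are close copies or isoforms of their subunits. The other 4 matched by name and are no subunits: COX4NB, an older symbol of EMC8; ATP5S and ATP5SL, 2 proteins related to the ATP synthase or complex I by name or assembly; and the read-through gene ATP5J2-PTCD1. NDUFA4 was placed in complex IV, where its protein is found despite its name. The filter on low counts was passed by 81 of the 87. The 6 left out were COX4I2 and ATP5J2-PTCD1, with no reads in any library, and COX6A2, COX7A1, COX8C and ATP5L2, each with under 1 CPM, the count scaled to a common library size, in every library.

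U2OS is an osteosarcoma line and MDA-MB231 a basal breast cancer line, and total RNA of whole cultures was sequenced. Each line was treated for 8 h with doxorubicin at 1 µM, etoposide at 20 µM, methyl methanesulfonate (MMS) at 40 µg/mL or paclitaxel at 0.2 µM, or was given the vehicle DMSO. Both doxorubicin and etoposide trap topoisomerase II on DNA, and doxorubicin is also an intercalator. MMS is an alkylating agent, and paclitaxel binds and stabilises microtubules. There was 1 library per line and drug, 1 U2OS DMSO library and 2 MDA-MB231 DMSO libraries. MDA-MB231 DMSO replicate 1 is titled like the doxorubicin, etoposide and paclitaxel libraries, which give no time in their titles. Replicate 2 is titled like the MMS library and carries the label DMSO together with a description as not treated. The labels do not say that any libraries came from separate cultures. No drug has a second library in the same line, and the 2 MDA-MB231 DMSO libraries are modelled apart. So p-values measure how far the 2 lines differ in their drug responses, with any technical spread included, and not a spread between replicates.

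Oxidative phosphorylation is carried out by 5 complexes of the inner mitochondrial membrane. Complexes I and II pass electrons from NADH and succinate to ubiquinone, complex III passes them to cytochrome c, complex IV reduces oxygen with them, and complex V makes ATP from the proton gradient. Most subunits are encoded in the nucleus, made in the cytosol and imported, and they are joined in the membrane by subunits made from mitochondrial DNA. The 13 mitochondrially encoded subunits were not analysed here. Promoters of the nuclear genes are known for sites of NRF1, of ETS-family factors such as GABP, and of YY1.

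To show what stands in front of genes that differed in their response, the 120 bases before the annotated start are printed for 3 genes that rose strongly after doxorubicin (NDUFA4, COX6A1, UQCRQ), for ATP5G1, which rose after doxorubicin and fell after MMS, and for SDHA and UQCRFS1, which passed no test. Sequences and coordinates are those of RefSeq on GRCh38.p14, and run 5′ to 3′ along the gene. Capitals mark matches, on either strand, to GCGCANGCG (NRF1), CCGGAAG (ETS) or AAGATGGCG (YY1).
NDUFA4 (chr7:10940154-10940273, minus strand): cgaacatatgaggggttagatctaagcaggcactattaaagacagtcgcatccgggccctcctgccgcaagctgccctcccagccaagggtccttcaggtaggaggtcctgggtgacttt
COX6A1 (chr12:120437993-120438112, plus strand): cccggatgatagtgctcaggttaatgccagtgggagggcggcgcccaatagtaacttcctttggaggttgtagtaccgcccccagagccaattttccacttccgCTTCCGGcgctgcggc
UQCRQ (chr5:132866522-132866641, plus strand): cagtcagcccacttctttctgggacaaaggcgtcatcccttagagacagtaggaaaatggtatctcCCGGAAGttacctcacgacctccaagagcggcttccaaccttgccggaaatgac
ATP5G1 (chr17:48892667-48892786, plus strand): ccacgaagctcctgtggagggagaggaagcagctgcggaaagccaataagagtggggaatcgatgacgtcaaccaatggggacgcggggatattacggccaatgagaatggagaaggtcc
SDHA (chr5:218200-218319, plus strand): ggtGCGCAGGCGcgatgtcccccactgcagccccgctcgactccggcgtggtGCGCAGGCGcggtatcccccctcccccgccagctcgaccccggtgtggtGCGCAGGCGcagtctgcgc
UQCRFS1 (chr19:29213152-29213271, minus strand): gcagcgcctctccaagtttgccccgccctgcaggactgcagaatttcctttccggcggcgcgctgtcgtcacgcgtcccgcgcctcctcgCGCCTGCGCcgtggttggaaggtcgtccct

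SDHA and UQCRFS1 hold NRF1 letters in these stretches, and SDHA holds them 3 times in a repeated unit. COX6A1 and UQCRQ hold an ETS match each, and NDUFA4 and ATP5G1 hold none of the 3 motifs. Over the whole 300-base windows (250 before to 50 after the start), 69 of the 87 genes had a RefSeq promoter. The NRF1 motif was in 30.4% of these, against 13.7% of the 11960 promoters of tested genes and 8.05% of all 27305 promoters. The ETS motif was in 29.0%, against 17.5% of the promoters of tested genes and 10.7% of all promoters. The YY1 motif was in 11.6%, against 3.55% and 1.85%. Among the 57 promoters of genes called higher after doxorubicin, 29.8% held NRF1 letters, 31.6% ETS letters, 10.5% TATAAA and 12.3% CACGTG. Among the 10 promoters of tested genes that were not, 3 held NRF1 letters, 2 ETS letters and none TATAAA or CACGTG. These differences were not tested. CCAAT was in 34.8% of the 69 and in 36.1% of promoters of tested genes, TATAAA in 10.1% and 6.37%, CACGTG in 10.1% and 9.73%, and GGGCGG in 58.0% and 67.9%. GGGCGG is the SP1 motif and CACGTG the E-box, and none of the 7 motifs contains another. A match is a run of letters and not a measured site.

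Doxorubicin was followed by more respiratory chain mRNA in both lines. The 87 genes took 1.291% of gene reads in doxorubicin-treated U2OS cells and 0.87% in U2OS DMSO cells. They took 1.331% in doxorubicin-treated MDA-MB231 cells, against 0.8063% and 0.7349% in the MDA-MB231 DMSO libraries. Both doxorubicin libraries lie above all 9 others, which span 0.6665% to 0.8981%. These shares are of 16774156 to 31588683 gene reads per library, so their exact binomial intervals (Clopper-Pearson, 95%, counting error only) are narrow, for example 1.2868% to 1.2957% in U2OS doxorubicin cells. In bulk libraries, more of these mRNAs and less of the others cannot be told apart, nor can fewer cells of a type and less RNA per cell.

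**Figure D1:**
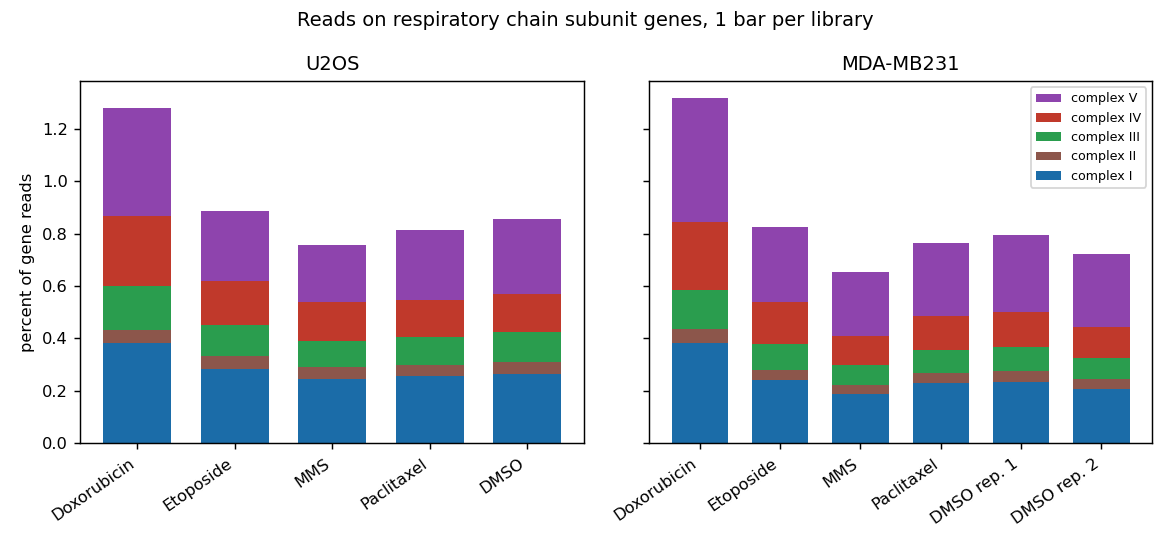
Percent of gene reads on subunit genes of complexes I to V, stacked by complex, with 1 bar per library, for U2OS (left) and MDA-MB231 (right). The doxorubicin bars are the tallest in both lines.

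In the edgeR fit over both lines, 68 of the 81 tested genes rose after doxorubicin, 1 fell and 12 passed no test at an adjusted p under 0.05. Of all 15888 genes tested, 21.9% were called higher and 20.6% lower. The median log2 fold change over DMSO was 0.90 for the 81 genes and 0.07 for all genes. Without the 3 tested genes matched by name alone and the copy UQCRHL, 66 of 77 rose. With a model that has no block for line and title form, 40 of the 81 rose and none fell, and the share of all genes called was lower too (807 higher, 1093 lower). Scaling by total counts in place of TMM gave 56 higher and 2 lower, with 2453 of all genes higher and 4064 lower, and moved the median of all genes to -0.15 and that of the 81 to 0.69.

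**Figure D2:**
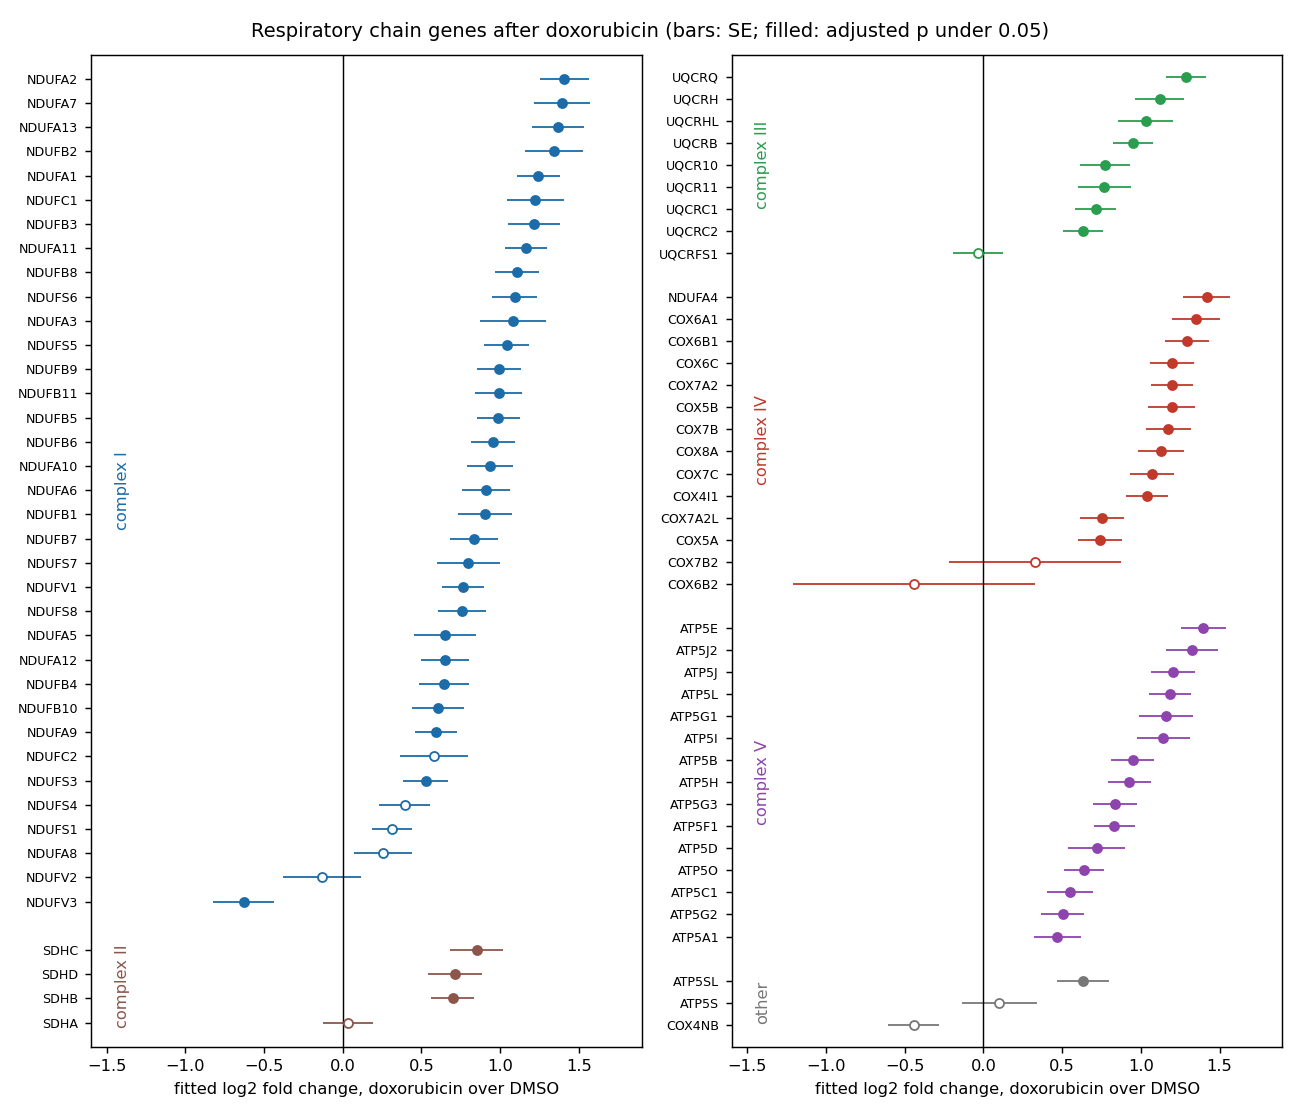
Fitted log2 fold change of the tested genes named on the axis, doxorubicin over DMSO, over both lines (bars: SE; filled points: adjusted p under 0.05), by complex. Most points lie between 0.5 and 1.4, NDUFV3 is the filled point below 0, and SDHA, UQCRFS1 and NDUFV2 lie near 0.

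Complex I takes electrons from NADH through a matrix arm and pumps protons in a membrane arm. Of its 36 genes 29 rose and 1 fell, with a median log2 fold change of 0.91. The core genes of the matrix arm, which carry the flavin and the iron-sulfur clusters, had a median of 0.53. Those that rose were NDUFV1, the NADH-binding flavoprotein (0.77 ± 0.13, SE), NDUFS7 (0.80 ± 0.20), NDUFS8 (0.76 ± 0.15) and NDUFS3 (0.53 ± 0.14). NDUFS1 and NDUFV2, also core subunits, had log2 fold changes of 0.31 and -0.13 and passed no test. Of the 29 accessory genes 25 rose and 1 fell, with a median of 0.99. By position, 18 of 20 genes of the membrane arm and 11 of 16 of the matrix arm rose, with medians of 0.99 and 0.65.

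NDUFA2, an accessory subunit of the matrix arm, had 115 CPM in U2OS and 109 CPM in MDA-MB231 cells with doxorubicin, against 40.1 CPM in U2OS DMSO and 44.1 and 39.9 CPM in MDA-MB231 DMSO cells. The doxorubicin values did not overlap the DMSO values, and the log2 fold change was 1.41 ± 0.16 (adjusted p = 0.000389). NDUFA7, another accessory subunit, had 69.0 CPM in U2OS and 80.3 CPM in MDA-MB231 cells with doxorubicin. With DMSO it had 24.9 CPM in U2OS and 31.3 and 23.5 CPM in MDA-MB231 cells, and the log2 fold change was 1.39 ± 0.18 (adjusted p = 0.000639). NDUFV3, an accessory subunit next to the NADH site, was the 1 that fell. It had 16.2 CPM in U2OS and 38.5 CPM in MDA-MB231 cells with doxorubicin, against 27.3 CPM in U2OS DMSO and 53.9 and 51.2 CPM in MDA-MB231 DMSO cells. Within each line the doxorubicin library was the lower, and the log2 fold change was -0.63 ± 0.19 (adjusted p = 0.0271). This call was lost when U2OS doxorubicin (adjusted p = 0.186), MDA-MB231 DMSO replicate 1 (0.106), U2OS DMSO (0.0975), MDA-MB231 paclitaxel (0.0546) or U2OS paclitaxel (0.0519) was left out.

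Complex II, succinate dehydrogenase, is the 1 complex made by nuclear genes alone, and its catalytic flavoprotein stood apart from the other subunits. SDHA, the flavoprotein, had 197 CPM in U2OS and 185 CPM in MDA-MB231 cells with doxorubicin, against 202 CPM in U2OS DMSO and 172 and 159 CPM in MDA-MB231 DMSO cells. Its log2 fold change was 0.03 ± 0.16 (adjusted p = 0.882). SDHB, the iron-sulfur subunit, had 211 and 207 CPM in doxorubicin-treated U2OS and MDA-MB231 cells. Its DMSO values were 139 CPM in U2OS and 126 and 120 CPM in MDA-MB231 cells, and it rose by 0.70 ± 0.14 on the log2 scale (adjusted p = 0.00419). The membrane anchors rose as well, SDHC by 0.85 ± 0.17 and SDHD by 0.71 ± 0.17. The SDHD call was lost without MDA-MB231 DMSO replicate 1 (adjusted p = 0.0894).

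Complex III, the cytochrome bc1 complex, had 8 of 9 genes higher, with a median log2 fold change of 0.77. UQCRQ, a small accessory subunit, had 432 CPM in U2OS and 259 CPM in MDA-MB231 cells with doxorubicin. With DMSO it had 169 CPM in U2OS and 112 and 96.8 CPM in MDA-MB231 cells, and its log2 fold change was 1.29 ± 0.13 (adjusted p = 0.000256). The core proteins UQCRC1 and UQCRC2, which face the matrix, rose by 0.71 ± 0.13 and 0.63 ± 0.13. UQCRFS1, the catalytic Rieske iron-sulfur protein, had 76.1 CPM in U2OS and 85.4 CPM in MDA-MB231 cells with doxorubicin, against 93.7 CPM in U2OS DMSO and 74.4 and 71.1 CPM in MDA-MB231 DMSO cells. The 2 lines lay on opposite sides of their DMSO values, and the log2 fold change was -0.04 ± 0.16 (adjusted p = 0.878). UQCRH and its intronless copy UQCRHL are alike at 269 of 273 coding bases, so the reads of this pair cannot be cleanly assigned. Both were called higher, at 1.12 and 1.03.

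Complex IV, cytochrome c oxidase, had the highest median of the 5 complexes, 1.15, and 12 of its 14 tested genes rose. NDUFA4 had 337 CPM in U2OS and 198 CPM in MDA-MB231 cells with doxorubicin, against 111 CPM in U2OS DMSO and 84.4 and 75.5 CPM in MDA-MB231 DMSO cells. Its log2 fold change of 1.42 ± 0.15 was the highest of the 81 (adjusted p = 0.000334). COX6A1, an accessory subunit, had 119 CPM in U2OS and 160.0 CPM in MDA-MB231 cells with doxorubicin. With DMSO it had 41.2 CPM in U2OS and 69.6 and 64.1 CPM in MDA-MB231 cells, and it rose by 1.35 ± 0.15. The other ubiquitous forms named for isoform pairs lay close together: COX6B1 rose by 1.29, COX7A2 by 1.20, COX7B by 1.18, COX8A by 1.13 and COX4I1 by 1.04. Their tissue isoforms were scarce. COX4I2, COX6A2, COX7A1 and COX8C were not tested. COX6B2, the testis isoform of COX6B, had 1.22 CPM in U2OS and 0.28 CPM in MDA-MB231 cells with doxorubicin. With DMSO it had 2.72 CPM in U2OS and 0.118 and 0.125 CPM in MDA-MB231 cells. The MDA-MB231 values rest on 6 reads with doxorubicin and on 3 and 2 with DMSO. COX7B2, the testis isoform of COX7B, had 9.68 CPM in MDA-MB231 cells with doxorubicin and 7.67 and 8.94 CPM with DMSO. It had no reads in any U2OS library. Neither passed the test (log2 fold changes of -0.44 ± 0.77 and 0.33 ± 0.55). COX7A2L, a factor of supercomplex assembly, and COX5A, which binds the matrix side of the enzyme, were the lowest of the called complex IV genes, at 0.75 and 0.74. With NDUFA4 counted in complex I, complex IV had 11 of 13 genes higher and a median of 1.13.

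Complex V, the ATP synthase, had all 15 tested genes higher, with a median log2 fold change of 0.93. The 5 genes of the F1 head had a median of 0.72 and held both extremes. ATP5E, the small epsilon subunit, had 240.2 CPM in U2OS and 146 CPM in MDA-MB231 cells with doxorubicin, against 86.3 CPM in U2OS DMSO and 57.8 and 49.3 CPM in MDA-MB231 DMSO cells. It rose by 1.40 ± 0.14 (adjusted p = 0.00028). ATP5A1, the large alpha subunit, had 565 CPM in U2OS and 658 CPM in MDA-MB231 cells with doxorubicin. With DMSO it had 431 CPM in U2OS and 497 and 524 CPM in MDA-MB231 cells, and it rose by 0.47 ± 0.15 (adjusted p = 0.0323). The ATP5A1 call was lost when any 1 of 7 libraries was left out, with adjusted p up to 0.117 (without MDA-MB231 DMSO replicate 1). These 7 were both doxorubicin libraries, the 3 DMSO libraries and both paclitaxel libraries. ATP5B, the catalytic beta subunit, rose by 0.95 ± 0.14. The 4 genes of the peripheral stalk had a median of 0.88, and the 3 small membrane subunits encoded by ATP5I, ATP5J2 and ATP5L a median of 1.19.

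Subunit c, which forms the rotating ring of complex V, is made from 3 genes that differ in their import sequence and encode the same final 77 residues. Their 231 coding bases for this end were read from the GENCODE 29 transcripts, with capitals at the 57 bases where the 3 genes are not all alike.
ATP5G1 (chromosome 17): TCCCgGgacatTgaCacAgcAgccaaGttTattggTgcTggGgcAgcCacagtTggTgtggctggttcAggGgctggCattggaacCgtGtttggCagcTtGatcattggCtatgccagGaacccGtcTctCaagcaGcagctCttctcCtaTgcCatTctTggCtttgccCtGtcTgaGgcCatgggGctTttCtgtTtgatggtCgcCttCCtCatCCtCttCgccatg
ATP5G2 (chromosome 12): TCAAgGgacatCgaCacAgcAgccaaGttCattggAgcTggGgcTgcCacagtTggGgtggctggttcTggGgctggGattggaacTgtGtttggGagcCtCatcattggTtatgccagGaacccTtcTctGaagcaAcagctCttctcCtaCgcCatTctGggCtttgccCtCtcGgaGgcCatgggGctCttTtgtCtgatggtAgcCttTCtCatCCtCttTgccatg
ATP5G3 (chromosome 2): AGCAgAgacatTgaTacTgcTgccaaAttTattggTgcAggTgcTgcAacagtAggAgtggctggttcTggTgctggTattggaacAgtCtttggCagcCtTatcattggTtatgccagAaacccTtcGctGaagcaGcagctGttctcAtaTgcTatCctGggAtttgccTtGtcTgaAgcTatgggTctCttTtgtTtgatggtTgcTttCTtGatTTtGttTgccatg

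The ends of ATP5G1 and ATP5G2 share 88.3% of these bases, and each shares 80.1% with ATP5G3. ATP5G1 had 136 CPM in U2OS and 187 CPM in MDA-MB231 cells with doxorubicin, against 67.0 CPM in U2OS DMSO and 85.1 and 71.3 CPM in MDA-MB231 DMSO cells. It rose by 1.16 ± 0.17 (adjusted p = 0.00108). ATP5G3 had 377 and 339 CPM in doxorubicin-treated U2OS and MDA-MB231 cells. With DMSO it had 210.1 CPM in U2OS and 206 and 193 CPM in MDA-MB231 cells, and it rose by 0.84 ± 0.14. ATP5G2 had 259 CPM in U2OS and 152 CPM in MDA-MB231 cells with doxorubicin, against 205 CPM in U2OS DMSO and 96.2 and 98.0 CPM in MDA-MB231 DMSO cells. It rose by 0.50 ± 0.14 (adjusted p = 0.0167), and the call was lost without MDA-MB231 doxorubicin (adjusted p = 0.15), MDA-MB231 DMSO replicate 1 (0.133) or U2OS DMSO (0.0548). Of the 3 genes, ATP5G2 also differed between lines. With DMSO it had 343 CPM per kilobase of transcript in U2OS cells and 161 and 164 in MDA-MB231 cells, a level difference of 1.07 on the log2 scale. For ATP5G1 and ATP5G3 the level differences were smaller, at -0.22 and 0.07.

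Of the 3 tested genes that match by name alone, ATP5SL, a complex I assembly factor also called DMAC2, rose by 0.63 ± 0.17. Its call was lost without MDA-MB231 doxorubicin (adjusted p = 0.152), MDA-MB231 DMSO replicate 1 (0.111) or U2OS DMSO (0.0693). COX4NB and ATP5S had log2 fold changes of -0.44 and 0.10 and passed no test. COX4NB lies beside COX4I1, which rose.

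The 2 lines, each with 1 doxorubicin library, gave like values. In U2OS cells 33 of 79 genes with at least 5 CPM in either library were 2-fold or more above DMSO and none was 2-fold below, where 14.3% of all genes were above and 18.3% below. In MDA-MB231 cells 31 of 80 were above and none below, where 8.19% of all genes were above and 18.8% below. The median log2 ratio was 0.88 in U2OS and 0.87 in MDA-MB231 cells, with medians over all genes of -0.02 and -0.10. Under scaling by total counts, 12 genes in U2OS and 18 in MDA-MB231 were 2-fold or more above DMSO, with medians of 0.58 and 0.76. By complex, the U2OS medians were 0.84 (I), 0.62 (II), 0.74 (III), 1.18 (IV) and 0.88 (V), and the MDA-MB231 medians were 0.87, 0.67, 0.85, 1.11 and 0.89. In U2OS 72 of 79 ratios were above 0, and in MDA-MB231 78 of 80.

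NDUFV2 and UQCRFS1, singled out after their values were seen, lay below DMSO in U2OS and above it in MDA-MB231. NDUFV2, an iron-sulfur subunit of the NADH module, had 41.3 CPM with doxorubicin and 66.5 CPM with DMSO in U2OS, and 86.4 CPM with doxorubicin and 72.0 CPM in DMSO replicate 1 in MDA-MB231. Its log2 ratios were -0.68 (counting interval -0.81 to -0.56) and 0.26 (0.17 to 0.36). A term for treated U2OS libraries, a test for a line difference in the response averaged over the 4 drugs, called none of the 81 genes by edgeR, DESeq2 or limma-voom. It called almost nothing elsewhere: of all 16530 genes, 0 by edgeR and limma-voom, and 1 higher and 1 lower by DESeq2. None of the 81 had an unadjusted p under 0.05, and 210 of the 16530 genes in that fit did. A difference between lines after doxorubicin alone was not tested, since each line has 1 doxorubicin library.

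**Figure D3:**
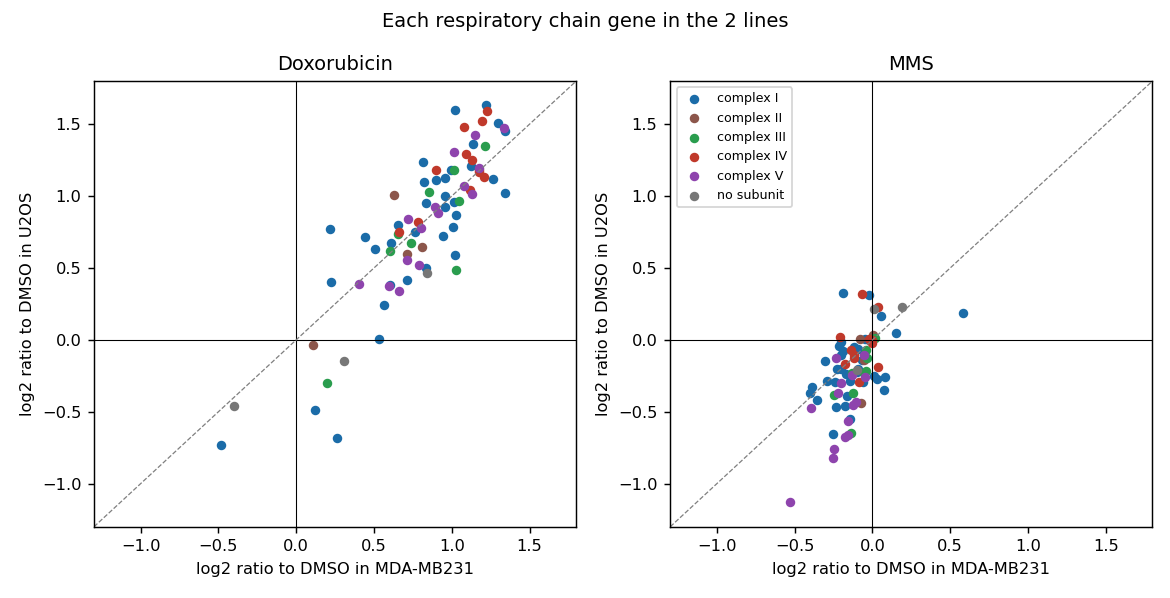
Log2 ratio of CPM (plus 0.5) to the matching DMSO library in U2OS (vertical) against MDA-MB231 (horizontal), 1 point per gene with at least 5 CPM, coloured by complex, for doxorubicin (left) and MMS (right). After doxorubicin most points lie above 0 in both lines. After MMS most points lie below 0 in each line, among them the complex V points, with a median of -0.45 in U2OS and -0.18 in MDA-MB231.

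Etoposide left the respiratory chain near its DMSO level. In the fit 1 of the 81 genes rose and 3 fell, where 7.97% of all genes were called higher and 9.23% lower. The median log2 fold change was -0.06 for the 81 genes and 0.02 for all genes, and under scaling by total counts it was 0.06 and 0.15. NDUFA2 was the 1 that rose. It had 62.1 CPM in U2OS and 71.1 CPM in MDA-MB231 cells with etoposide, against 40.1 CPM in U2OS DMSO and 44.1 and 39.9 CPM in MDA-MB231 DMSO cells (log2 fold change 0.65 ± 0.16, adjusted p = 0.0248). ATP5S fell by 1.13 ± 0.25 (adjusted p = 0.0188), with 7.52 and 5.54 CPM in etoposide-treated U2OS and MDA-MB231 cells. NDUFS8, an iron-sulfur subunit at the ubiquinone end of the matrix arm, fell by 0.59 ± 0.16 (adjusted p = 0.0337), and ATP5G2 fell by 0.55 ± 0.14 (adjusted p = 0.03). For each of the 4 genes, both etoposide libraries lay on the same side of the DMSO values of their own line.

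All 4 etoposide calls were lost when some single libraries were left out, and so were most calls over all genes. The full fit called 1267 of all genes higher and 1467 lower. Without MDA-MB231 DMSO replicate 1 these counts were 13 and 36, and without U2OS DMSO 140 and 241. When MDA-MB231 DMSO replicate 1, MDA-MB231 etoposide or U2OS DMSO was left out, none of the 81 genes was called. Adjusted p then came to 0.124 to 0.17 for NDUFA2, 0.1 to 0.119 for ATP5S, 0.131 to 0.199 for NDUFS8 and 0.121 to 0.165 for ATP5G2. The NDUFA2 and ATP5G2 calls were also lost without U2OS etoposide (adjusted p = 0.0567 and 0.1) and without either paclitaxel library, and the NDUFS8 call when any 1 of 8 of the 11 libraries was left out. DESeq2 called 3 higher and 7 lower, and 1740 of all genes higher and 2085 lower. Within a line, 1 gene lay 2-fold or more below DMSO and none above, ATP5S in both lines. Of all genes 7.5% in U2OS and 11.1% in MDA-MB231 were as far below, and 6.11% and 8.62% as far above. By complex the fitted medians ran from -0.23 in complex V to 0.13 in complex IV. The complex IV median was -0.03 without MDA-MB231 etoposide.

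MMS was followed by small decreases, of which 1 passed the test. None of the 81 genes rose and 1 fell in the edgeR fit, where 5.23% of all genes were called higher and 5.16% lower. At an unadjusted p under 0.05 there were 13 of the 81, against 4626 of all 15888 genes, which is a larger share. DESeq2 called 4 lower and none higher, and 1516 of all genes lower and 1395 higher. The median log2 fold change was -0.15, against -0.04 for all genes. ATP5G1 was the gene that fell. It had 30.4 CPM in U2OS and 49.3 CPM in MDA-MB231 cells with MMS, against 67.0 CPM in U2OS DMSO and 71.3 and 85.1 CPM in MDA-MB231 DMSO cells, with both MMS values below all DMSO values. Its log2 fold change was -0.86 ± 0.18 (adjusted p = 0.0221). The change was larger in U2OS than in MDA-MB231 cells, with log2 ratios of -1.13 (counting interval -1.27 to -1.01) and -0.53 (-0.65 to -0.41). In U2OS it was the 1 gene at 2-fold or more below DMSO and none was as far above, where 11.2% of all genes were below and 7.32% above. In MDA-MB231 none of the 80 genes was 2-fold from DMSO, where 3.4% of all genes were below and 2.71% above. The call was lost without U2OS MMS (adjusted p = 0.573, log2 fold change -0.53), U2OS DMSO (0.1) or MDA-MB231 DMSO replicate 1 (0.0646).

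All 15 tested complex V genes had MMS log2 fold changes below 0, with a median of -0.32, and 7 of them had an unadjusted p under 0.05, as did 4626 of all 15888 genes. Few genes of the other complexes lay above 0 either: 5 of 36 (I), 1 of 4 (II), 0 of 9 (III) and 3 of 14 (IV). Of the 81 genes 11 lay above 0, and of all 15888 genes 7459. The complex V median was -0.18 without the U2OS MMS library. ATP5A1 had 243 CPM in U2OS and 440.2 CPM in MDA-MB231 cells with MMS, against 431 CPM in U2OS DMSO and 524 CPM in MDA-MB231 DMSO replicate 2 (log2 fold change -0.55 ± 0.15, adjusted p = 0.0544). The other complexes had medians of -0.15 (I), -0.09 (II), -0.13 (III) and -0.06 (IV). In U2OS the complex V median log2 ratio was -0.45 and in MDA-MB231 -0.18.

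Paclitaxel called none of the 81 genes and none of all 15888 genes (0.0%) in the edgeR fit, and none by DESeq2 or limma-voom. None of the 81 and 110 of all genes had an unadjusted p under 0.05. The fold changes ran from -0.32 to 0.36 with a median of -0.08, against 0.01 for all genes. This fit shares its spread over all 4 drugs. An edgeR fit of the paclitaxel libraries and their DMSO libraries alone called 26 of 14863 genes higher and 4 lower. It called 0 of the 81 genes. In that fit 5 of the 81 and 1688 of all genes had an unadjusted p under 0.05. No gene of the 81 was 2-fold or more from DMSO in either line, where 9 of 11266 genes were higher in U2OS (0.0799%) and 50 of 10832 in MDA-MB231 (0.462%), and 1 was lower in each (0.00888% and 0.00923%).

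The spread between DMSO libraries was of the same order as these small shifts. In MDA-MB231 DMSO replicate 2 over replicate 1, 59 of 80 genes with at least 5 CPM lay below 0, the median log2 ratio was -0.11 and the ratios ran from -0.55 to 0.36. Paclitaxel medians within a line were -0.10 in U2OS and -0.09 in MDA-MB231, and MMS medians were -0.21 and -0.12. Etoposide medians were -0.15 and -0.04. No doxorubicin median falls in this range.

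**Figure D4:**
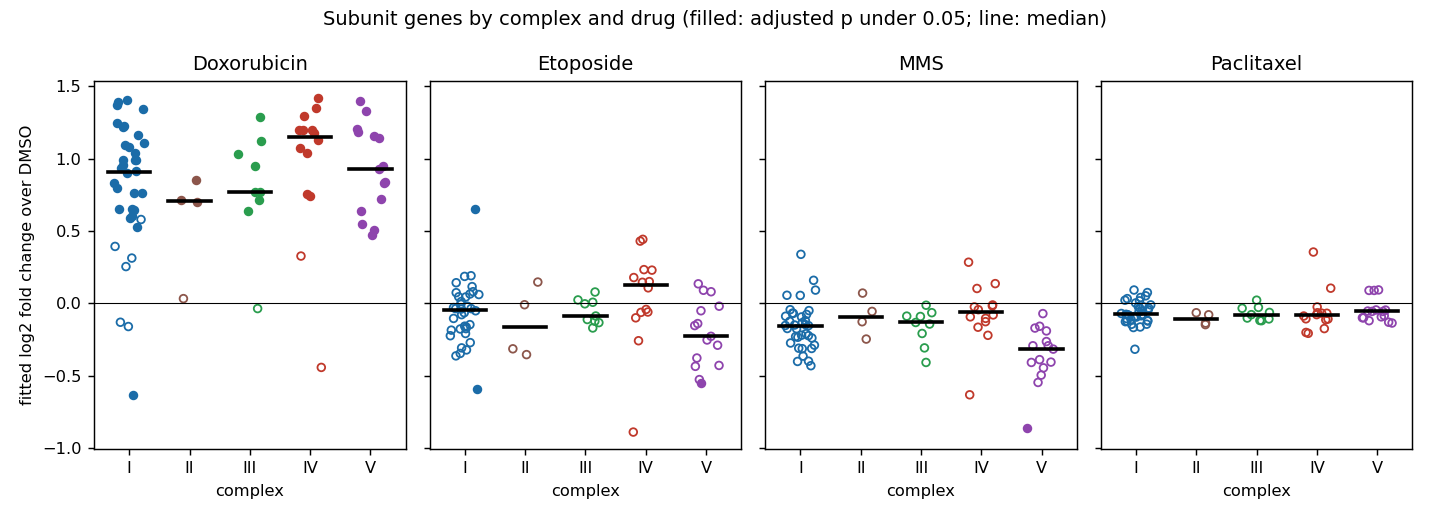
Fitted log2 fold change over DMSO of each tested subunit gene (points, filled at an adjusted p under 0.05) by complex for the 4 drugs, with the median as a line. After doxorubicin the medians lie between 0.71 and 1.15, and after the other drugs between -0.32 and 0.13.

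Set directly against the other drugs, doxorubicin gave higher levels of most of these genes. Against etoposide 71 of 81 were called higher and none lower (24.1% and 22.3% of all genes). Against MMS 67 were called higher and 1, COX4NB, lower (22.3% and 20.4% of all genes). Against paclitaxel 71 were called higher and none lower (20.2% and 20.1% of all genes). Without the block for line, 34, 39 and 29 of the 81 were called higher, where 702, 734 and 359 of all 15888 genes were. With the block, 3831, 3536 and 3202 of all genes were called higher. Without U2OS MMS, which leaves 1 MMS library, the median log2 difference of the 81 from MMS was 0.96, against 1.06 in the full fit. All 15 complex V genes were higher in each of the 3. ATP5G1 showed the widest gap against both of the other DNA-damaging drugs, 2.02 against MMS and 1.68 against etoposide. NDUFA2 differed by 1.77 from MMS and by 0.75 from etoposide, after which it also rose.

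Genes with short coding sequences rose more after doxorubicin. Of the 21 genes with a coding length of up to 300 bases 19 rose, with a median log2 fold change of 1.18. Of 36 genes of over 300 to 600 bases 33 rose (median 0.94), of 14 genes of over 600 to 1200 bases 10 rose (median 0.61), and of 10 longer genes 6 rose and 1 fell (median 0.55). Over all genes tested the same 4 classes had medians of 0.72, 0.48, 0.12 and -0.05, with 45.0%, 37.8%, 23.8% and 18.7% called higher. Spearman's rho between coding length and the doxorubicin fold change was -0.62 over the 81 genes, -0.61 in complex I (36 genes) and -0.82 in complex V (15 genes), and -0.12 over the 14417 genes with a coding length. These are correlations across genes that share the same libraries, given as descriptions. After etoposide rho was -0.41 over the 81 genes, after MMS -0.10 and after paclitaxel -0.0049. NDUFA4, NDUFA2 and ATP5E, named above for high fold changes, have coding lengths of 243, 297 and 153 bases. Among genes with low fold changes, NDUFV3, SDHA and ATP5A1 have coding lengths of 1419, 1992 and 1659 bases. Shorter genes were also low, with lengths of 630 bases in COX4NB, 756 in NDUFV2, 798 in ATP5S and 822 in UQCRFS1. COX6B2, which had few reads, goes against the pattern, with 264 bases and a log2 fold change of -0.44. ATP5B also goes against it, with 1587 bases and 0.95. The library kit is not given in the sources used, and the part of length in these fold changes was not tested.

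**Figure D5:**
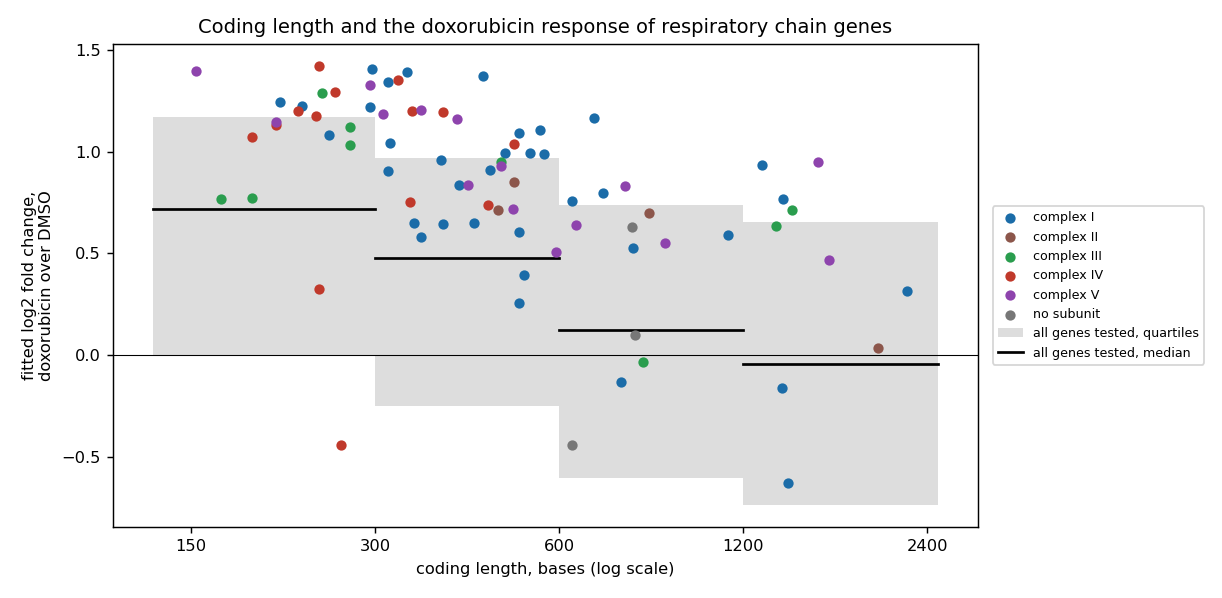
Fitted log2 fold change, doxorubicin over DMSO, of each tested gene against its coding length in bases on a log scale, coloured by complex. Grey bands and black lines give the quartiles and medians of all tested genes in 4 length classes, from 0.72 in the shortest to -0.05 in the longest; most respiratory chain genes lie above the median of their class.

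Other large complexes gave mixed counts, read here against the 21.9% of all genes called higher and 20.6% called lower after doxorubicin. After doxorubicin 69 of 81 cytosolic ribosomal protein genes were called higher and 2 lower (median 0.81). The proteasome had 23 of 38 higher and 4 lower (median 0.49). The mitochondrial ribosome, whose proteins make the mitochondrially encoded subunits, had 16 of 76 higher (21.1%) and 18 lower (23.7%), near these shares, with a median of -0.05. After etoposide 14 of 76 mitochondrial (18.4%) and 12 of 81 cytosolic (14.8%) ribosomal protein genes fell and none rose, where 9.23% of all genes were called lower and 7.97% higher.

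Genes that serve the chain without being matched by the symbol rule were read from lists, against the same shares of all genes. All 6 tested genes of the rest of the chain rose after doxorubicin, among them CYCS, cytochrome c (0.94 ± 0.13), CYC1, cytochrome c1 of complex III (0.46 ± 0.12), and USMG5, a small ATP synthase subunit (1.12 ± 0.16). CYC1 fell after etoposide by 0.61 ± 0.13. The citric acid cycle had 8 of 13 genes higher and none lower after doxorubicin. Assembly factors were mixed. For complex I 4 of 14 rose (28.6%) and 1 fell (7.14%), with NDUFAF2 at 0.97 ± 0.17 and NDUFAF5 (listed as C20orf7) at -1.24 ± 0.32. For complexes II to V 7 of 29 rose (24.1%) and 6 fell (20.7%), close to the shares of all genes, with SURF1, a complex IV factor, at 1.17 ± 0.17, and SDHAF1, which serves complex II, at -2.48 ± 0.28. Of the genes of coenzyme Q synthesis 3 of 13 rose (23.1%), also close to the share of all genes, and none fell, with COQ4 at 1.09 ± 0.21. Of the protein import genes 5 of 18 rose and 5 fell (27.8% each), from TOMM7 at 1.05 ± 0.14 to TIMM9 at -2.28 ± 0.37.

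After doxorubicin 5 of 15 regulators of mitochondrial genes fell (33.3%, against 20.6% of all genes) and 1 rose (6.67%, against 21.9%), with a median of -0.49. NRF1 had 3.91 CPM in U2OS and 4.44 CPM in MDA-MB231 cells with doxorubicin, against 27.1 CPM in U2OS DMSO and 31.04 and 30.9 CPM in MDA-MB231 DMSO cells (log2 fold change -2.84 ± 0.22, adjusted p = 0.00015). PPARGC1A, the coactivator PGC-1 alpha, fell by 2.88 ± 0.45 and PPRC1, a related coactivator, by 2.03 ± 0.17. POLRMT, the mitochondrial RNA polymerase, fell by 1.22 ± 0.24 and GABPB1, a subunit of the ETS-family factor GABP, by 0.85 ± 0.20. POLG, the mitochondrial DNA polymerase, rose by 0.91 ± 0.15. After etoposide 4 fell and 2 rose (26.7% and 13.3%, against 9.23% and 7.97% of all genes). NRF1, PPRC1 and GABPB1 fell by 0.72 ± 0.20, 1.37 ± 0.17 and 0.69 ± 0.20, and C10orf2, the mitochondrial DNA helicase Twinkle, by 0.61 ± 0.16. POLG rose by 1.30 ± 0.15 and MTERF, a mitochondrial termination factor, by 1.06 ± 0.28. After MMS 2 fell and 2 rose (13.3% each, against 5.16% and 5.23% of all genes), with a median of 0.05. PPARGC1A fell by 1.63 ± 0.40 and PPARGC1B, another coactivator, by 2.21 ± 0.47. TFB2M, a mitochondrial transcription factor, rose by 0.93 ± 0.20 and C10orf2 by 0.77 ± 0.16. These are levels of mRNA, and no link to the respiratory chain genes was tested.

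With DMSO the 2 lines held like summed amounts of these mRNAs. The 87 genes summed to 8448 CPM in U2OS and to 8092 and 7705 CPM in MDA-MB231 cells. Levels per kilobase use the length of the GENCODE transcript with the longest coding sequence. Per kilobase of transcript, the median level was 155 CPM in U2OS and 142 and 127 CPM in MDA-MB231 cells for complex IV. For complex V it was 152 CPM in U2OS and 154 and 135 CPM in MDA-MB231 cells. Complex I had 66.1 CPM per kilobase in U2OS and 67.3 and 57.4 CPM in MDA-MB231 cells, and complex II 63.6, against 62.2 and 56.6. Complex III differed more, with 111 CPM per kilobase in U2OS and 80.5 and 62.6 CPM in MDA-MB231 cells. Single genes differed in both directions, with log2 level differences (U2OS over MDA-MB231) of 1.85 for NDUFB9 and -1.175 for ATP5L. ATP5B had 474 CPM per kilobase of transcript in U2OS and 501 and 546 CPM in MDA-MB231 cells.

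Other measures moved with doxorubicin as well. Reads aligned to several places were 37.5% of reads in U2OS and 34.4% in MDA-MB231 doxorubicin cells, against 32.7% in U2OS DMSO and 30.0% and 30.4% in MDA-MB231 DMSO cells. Such reads are not counted for genes, and 44 of the 87 genes have pseudogenes named after them. Line markers gave a mixed picture. With DMSO, 6 osteoblast-lineage markers chosen for U2OS summed to 1031 CPM in U2OS and to 334.8 and 382 CPM in MDA-MB231 cells. SPARC, a matrix protein among them, had 596 to 1958 CPM in U2OS and at most 2.34 CPM in MDA-MB231 libraries. CDH11, a cadherin, went the other way, with 16.2 CPM in U2OS DMSO and 286 and 339 CPM in MDA-MB231 DMSO cells, and BGLAP, the osteocalcin gene, was below 1 CPM in every library. The 8 genes listed for MDA-MB231, with ESR1, PGR and ERBB2 listed as low, summed to 4078 CPM in U2OS DMSO and to 5259 and 5012 CPM in MDA-MB231 DMSO cells. This sum therefore mixes genes listed as present and as low. Of these, ESR1 and PGR were below 1 CPM in all 11 libraries. Both lists moved with treatment: 4 of 7 tested genes listed for MDA-MB231 (57.1%) and 2 of 5 tested U2OS markers (40.0%) fell after etoposide, and the same counts fell after MMS. Of all genes 9.23% were called lower after etoposide and 5.16% after MMS. The MDA-MB231 markers summed to 1487 CPM in U2OS and 1994 CPM in MDA-MB231 cells with etoposide. The summed level of 9 blood and immune markers was 55.6 CPM in U2OS and 238.6 CPM in MDA-MB231 cells with doxorubicin, against 22.3 CPM in U2OS DMSO and 138 and 121 CPM in MDA-MB231 DMSO cells. Most of it was CD68, a lysosomal protein, at 50.5 and 222 CPM with doxorubicin, while HBB was at 0 and CD3E below 1 CPM in every library. The summed level of 4 epithelial markers was 8.94 CPM in U2OS and 90.8 CPM in MDA-MB231 cells with doxorubicin, against 22.9 CPM in U2OS DMSO and 232 and 214 CPM in MDA-MB231 DMSO cells. The part of these measures in the results above was not tested.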

How the data were processed

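Total RNA of 2 cell lines was sequenced, giving 11 libraries. The authors deposited raw read counts per gene symbol, 1 table per library. Per the submitters' processing notes, CASAVA 1.8.2, TopHat2 2.0.8b and HTSeq were used and the builds hg19 and mm9 are named; hg19 was taken for these human cells. The strand setting, library kit and HTSeq version are not given in the sources used. The 5 summary lines that name no gene were left out of library sizes, and they hold the reads aligned to several places (28.4% to 37.5% of the reads tabulated).

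Counts were tested with edgeR 4.0.16 (R 4.3.3; TMM scaling, low counts removed by filterByExpr, robust quasi-likelihood test) over all 15888 genes that passed the filter, with Benjamini-Hochberg adjusted p under 0.05 over all of them as the call. The model had a term for each drug and a 3-level block, made of the U2OS libraries, the MDA-MB231 libraries whose titles name 8 h, and the other MDA-MB231 libraries. This left 4 residual degrees of freedom and a coefficient of variation of 0.213, which edgeR terms biological. With 1 library per line and drug, both rest on differences between the lines in their drug responses. The standard error was taken as the log2 fold change over the square root of F. A term for treated U2OS libraries was fitted separately, with 3 residual degrees of freedom. The replicate numbers pair nothing here, since only 1 group has more than 1 library. The MDA-MB231 DMSO libraries differed by more than sampling noise (chi-square per degree of freedom 28.1) and were kept as 2. The fit was tested on simulated counts. DESeq2 1.42.0, limma 3.58.1 (voom), other scalings, filters and blocks, and each library left out in turn were tried as alternatives.

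For each line alone, the log2 of TMM-scaled CPM plus 0.5 was compared with the DMSO library of the same line and title form, over genes with at least 5 CPM in either, with 95% Clopper-Pearson intervals of the reads. With 1 library each they have no replicate check, and intervals cover counting error only. Symbols, coding lengths and transcript lengths came from GENCODE 29, and promoters from RefSeq (GRCh38.p14), used for sequence and names only. Python 3.11.15, scipy 1.17.1 and pandas 2.3.3 were used.

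The genes, the lists and the tests were chosen with earlier results of these data known. Genes were named by rule: per drug the 4 highest and 4 lowest called, per complex the highest and lowest after doxorubicin, the SDH genes, isoform pairs of complex IV, the subunit c genes, NDUFA4, matched symbols that are no subunits, and up to 3 called genes at each end of the other lists. All called regulators, CDH11, the core subunits of complexes I and III, UQCRH, UQCRHL, COX5A, COX7A2L, ATP5B and, after MMS, ATP5A1 were named after their values were seen. Some genes that the rule named are not reported here.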

Additional observations from a re-analysis of the deposited data

Results flagged for a closer look

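In NDUFV2 and UQCRFS1 the doxorubicin library lay below DMSO in U2OS and above it in MDA-MB231, with both counting intervals clear of 0. NDUFV2 had log2 ratios of -0.68 in U2OS and 0.26 in MDA-MB231. UQCRFS1 had log2 ratios of -0.30 in U2OS and 0.20 in MDA-MB231. The difference between lines after doxorubicin was not tested, since each line has 1 doxorubicin library, and the MDA-MB231 ratios are smaller in size than the largest difference between the MDA-MB231 DMSO libraries (-0.55).

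Reads aligned to several places, which enter no gene count, were above all 3 DMSO libraries in 3 treated libraries. They made up 37.5% in U2OS doxorubicin and 32.9% in U2OS MMS cells, against 32.7% in U2OS DMSO cells. In MDA-MB231 doxorubicin cells they made up 34.4%, against 30.0% and 30.4% in MDA-MB231 DMSO cells. Their part in the counts of respiratory chain genes was not tested.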

How the results depend on the processing

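Of the 69 genes called after doxorubicin, 40 were called under every alternative run and 54 under every one that kept a block, and none changed sign. Without the replicate block, 40 genes were called higher and 0 lower after doxorubicin, 0 and 0 after etoposide and 0 lower after MMS. Doxorubicin against etoposide, MMS and paclitaxel then gave 34, 39 and 29 higher, with 0 lower against MMS. Of all genes, 807 were then higher and 1093 lower after doxorubicin, and 0 after etoposide or MMS. For the same drug comparisons 702, 734 and 359 of all genes were higher. The line term without the block called 9 higher and 11 lower, and 1879 and 2026 of all genes, since it then holds the difference between untreated lines. With the replicate block for line alone, 2 were lower after doxorubicin and 3 higher after etoposide. Under total counts, 2 were lower after doxorubicin, 3 higher and 1 lower after etoposide, 2 lower after MMS, and 2, 2 and 1 lower for doxorubicin against etoposide, MMS and paclitaxel. DESeq2 gave 2 lower after doxorubicin, 3 higher and 7 lower after etoposide and 4 lower after MMS, and limma-voom 2 lower after MMS. Upper quartile scaling gave 0 lower after doxorubicin, 2 higher after etoposide and 2 lower after MMS. Without a filter on low counts 2 were lower after doxorubicin. With only the libraries of a drug and DMSO, 0 were lower after doxorubicin, 1 lower after etoposide and 0 lower after MMS.

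With 1 library left out at a time, the count after doxorubicin ran from 56 to 68 higher and from 0 to 2 lower. After etoposide it ran from 0 to 2 higher and 0 to 4 lower, and after MMS from 0 to 2 lower. Against MMS, doxorubicin had 38 to 69 higher, lowest without U2OS MMS, and 0 to 2 lower, and against paclitaxel 0 to 1 lower. Where this leaves 1 library of a drug, that library is assumed to vary like the others. The line term could not be fitted without U2OS DMSO. Calls over all genes fell in some of these runs as well, for example to 13 higher and 36 lower after etoposide without MDA-MB231 DMSO replicate 1.

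Within lines, total-count scaling gave 12 higher and 1 lower in U2OS doxorubicin cells, 18 higher in MDA-MB231 doxorubicin cells and 0 lower in U2OS etoposide cells. It gave a summed level of 7349 CPM in MDA-MB231 DMSO replicate 2, against 7705 CPM with TMM. An offset of 2 CPM gave 0 lower after etoposide in both lines, and the other MDA-MB231 DMSO library gave 2 lower in MDA-MB231 etoposide cells. COX4NB was called lower after doxorubicin in 6 alternatives. The causes were not tested. With 1 library per line and drug, a response in 1 line has no replicate check.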
